A study of Mus musculus with 2 samples.

Results

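ISL1 peaks near WNT signalling genes were described for 8 genes of the pathway: Wnt11, Wnt5a, Fzd1, Dact1, Tcf7l2, Lef1, Ctnnb1 and Axin2. The genes were chosen by the peak list itself, with its contents known, and their peaks are those for which the authors name 1 of the 8 as the gene with the nearest transcription start site, at any distance. This gave 13 of 1483 peaks. Wnt5a had 5, Dact1 4, Fzd1 2, and Wnt11 and Tcf7l2 1 each. Lef1, Ctnnb1 and Axin2 had none. So 5 of the 8 genes were nearest to a peak at any distance and 4 of the 8 within 100 kb, where 3.82% and 2.57% of 26220 mouse genes were. Because the choice of genes used these counts, they are a description.

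ISL1, a homeodomain protein with LIM domains, acts as a transcription factor in cardiac progenitors and in the sinoatrial node, the pacemaker of the heart. Chromatin bound by it was precipitated and sequenced from sinoatrial node cells of ICR mice carrying Hcn4-H2BGFP, a nuclear green fluorescent label expressed from the Hcn4 pacemaker channel gene, at postnatal day 1 to 3. The cells were sorted on that label, so they are the cells that express it and not the whole node. The study deposited the ISL1 immunoprecipitate and an input of the same cells as 1 library each. The peak list is that of the 1 ISL1 library, with no replicate. Whether the authors called peaks against the input is not stated, and the input signal was not analysed here.

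WNT proteins are secreted signals that bind frizzled receptors on the cell surface. In the canonical branch, a destruction complex that contains Axin and APC marks beta-catenin for degradation until a WNT signal stops it, after which beta-catenin enters the nucleus and acts with TCF/LEF factors. In the noncanonical branches, of which WNT5A and WNT11 are the best known cardiac ligands, the signal runs through planar cell polarity proteins or calcium instead. In the embryonic heart WNT5A and WNT11 are needed for the outflow tract, and canonical signalling acts upstream of Isl1 in cardiac progenitors.

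Each peak carries a score from the authors, which ranks peaks within the list. The scores advance in even steps: each of the 1483 equals a whole multiple of 1.3683 rounded to the 3 digits deposited. If 1 step is 1 sequenced tag, the 13 peaks rest on 8 to 22 tags each, and the exact Poisson 95% intervals given here for scores follow from that number. These intervals cover counting error only. All peaks were 144 bp from start to end, and positions are in mm9 as deposited.

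Wnt11, a noncanonical ligand, had the highest score of the 13. Its peak lay at chr7:106076685-106076829, 89.4 kb downstream of the start site, with a score of 30.1 (18.9 to 45.6). It ranked 43 among the 1483 peaks, above 96.5% of them. It sat in intron 13 of 14 of the next gene, Uvrag, which encodes an autophagy and membrane traffic protein. No other peak of the list lay within 1000 kb of the Wnt11 start site, and the nearest one was 2251 kb from this peak. Peaks were that far or farther from their neighbour in 111 of 1483 cases (7.48%), with a median gap of 197 kb over the list.

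Wnt5a, the other noncanonical ligand, had the most peaks of the 8 genes, all 5 of them upstream and all 5 inside the neighbouring gene Erc2. Erc2 encodes a scaffold of the presynaptic active zone. The farthest peak, at chr14:28960642-28960786, lay 358 kb upstream in intron 13 of 15 and scored 23.3 (13.6 to 37.2), the highest at this gene. The next, at chr14:28978341-28978485, lay 340 kb upstream with a score of 16.4. A close pair followed at 253 and 252 kb upstream, chr14:29065650-29065794 with a score of 12.3 and chr14:29066259-29066403 with 10.9, their centres 609 bp apart. The peak closest to the gene, at chr14:29108339-29108483 in intron 14, lay 210 kb upstream and scored 17.8. The 5 spanned 148 kb, and none lay within 100 kb of the Wnt5a start site.

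A further peak in Erc2, in intron 2 (chr14:28474807-28474951, score 12.3), was 844 kb from Wnt5a and was listed under Erc2 itself. With it, Erc2 held 6 intronic peaks. Among the 433 genes that held an intronic peak, 2 held more, Unc5c and Lrmda, and Gmds and Ptprd held the same number. No peak was listed downstream of Wnt5a within 1000 kb. Of 1003 genes nearest to a peak, 13 had 5 peaks and 15 had more. The 5 genes most like Wnt5a, by the same number of peaks and the smallest difference in median score (16.4 for Wnt5a), were 2310008N11Rik and Mdfic (both 16.4), Tle1 (15.1), and Dennd1a and Prkd1 (both 17.8). All 5 peaks of Dennd1a were intronic, as were those of Wnt5a, while 2310008N11Rik and Mdfic had none in an intron. This likeness is between sets of peaks in 1 library and not across samples.

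Fzd1, a frizzled receptor that binds WNT ligands, had 1 peak on either side. The downstream peak, at chr5:4662082-4662226, was intergenic, 96.1 kb from the start site, and scored 24.6 (14.6 to 38.9), above 91.3% of all peaks. The upstream peak, at chr5:4949624-4949768, lay 191 kb away in intron 10 of 14 of Cdk14 and scored 16.4 (8.48 to 28.7). Cdk14 encodes a cyclin-dependent kinase that phosphorylates the WNT co-receptor LRP6. The 2 peaks were 288 kb apart, with the gene between them. Beyond the downstream peak, 2 intergenic peaks listed under Mterf1b lay 432 and 445 kb from the Fzd1 start site, with scores of 23.3 and 15.1.

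Dact1 encodes a partner of Dishevelled, the protein that relays WNT signals inside the cell. Its 4 peaks formed 2 close pairs, 1 on either side of the gene at nearly the same distance. The upstream pair lay 82.0 and 80.3 kb from the start site, at chr12:72328773-72328917 (score 10.9) and chr12:72330454-72330598 (score 19.2), their centres 1681 bp apart. Both fell in intron 29 of 29 of 2700049A03Rik, known as Talpid3, a centrosomal gene needed for primary cilia. The downstream pair, at chr12:72494189-72494333 and chr12:72495401-72495545, was intergenic, 83.4 and 84.6 kb away, with 1212 bp between centres and a score of 12.3 for both. The farther one lay on an LTR repeat, the single repeat among the 13 peaks. Only the peak of 19.2 (10.5 to 32.1) was above the list's median, and the interval of the lowest of the 4 ran from 4.73 to 21.6.

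The inner peaks of the 2 Dact1 pairs differed by 3.05 kb in their distance from the start site. Of 80 genes with a peak on both sides, 4 were flanked that evenly, the others being Cox7c, B4galt4 and Robo1. Of the 52 genes with peaks of their own within 2 kb of each other, 5 had 2 such pairs: Dact1, 1700019E08Rik, 2810442N19Rik, Cox10 and Efna5. Within 1000 kb of the Dact1 start site the list held 9 peaks, 5 of them listed under other genes. Around the 811 genes nearest to a peak whose start site and strand could be placed, the median was 3 peaks and the upper quartile 4; 37 of them (4.56%) had 9 or more. These counts were chosen after the Dact1 peaks were seen.

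Daam1, the next protein-coding gene after Dact1, belongs to the same pathway: it encodes a formin that links Dishevelled to the actin cytoskeleton in planar cell polarity. Its peak, at chr12:72989540-72989684 with a score of 13.7, carried the promoter annotation, 0.918 kb upstream of the Daam1 start site and 579 kb from that of Dact1. It was the single promoter peak among all WNT genes examined. Between the downstream Dact1 pair and Daam1, 2 further peaks of scores 15.1 and 23.3 were listed under the noncoding gene 4930404H11Rik, 162 and 235 kb from the Dact1 start site.

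Tcf7l2, a nuclear partner of beta-catenin, had the peak closest to a start site and the only 1 of the 13 inside its own gene. It lay at chr19:55983797-55983941, in intron 5 of 12, with a score of 15.1 (7.51 to 26.9), equal to the list's median. The authors' distance of 14.1 kb downstream refers to the start of another Tcf7l2 transcript than the one whose intron is named, and as the authors list the nearest start, that of the named transcript is no closer. The next peak was 454 kb away, in intron 5 of the neighbouring gene Vti1a, with a score of 16.4.

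**Figure D1:**
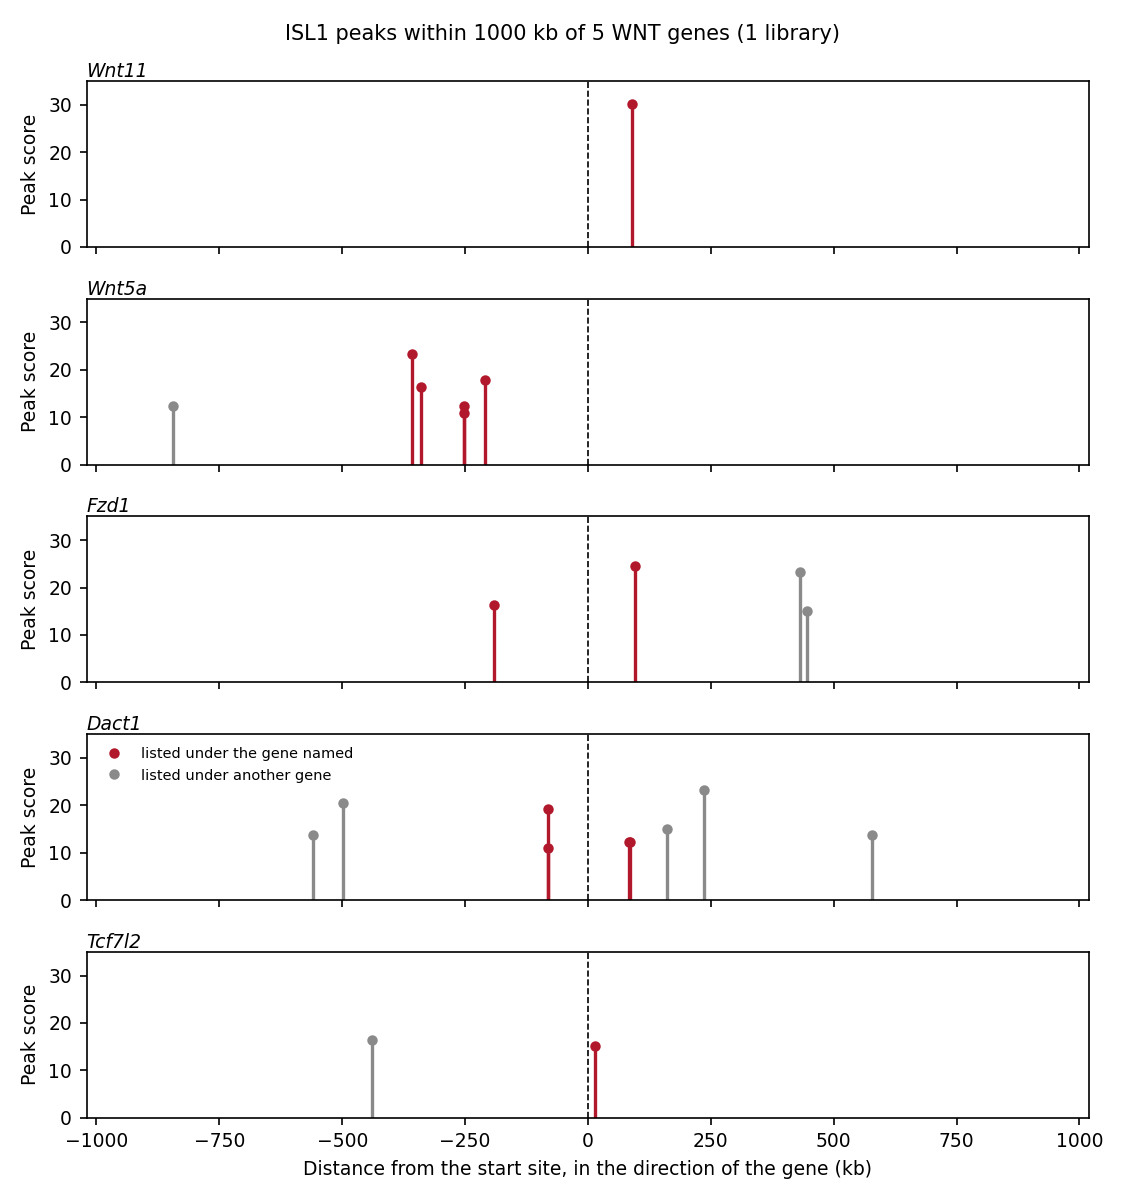
Peaks within 1000 kb of the start sites of Wnt11, Wnt5a, Fzd1, Dact1 and Tcf7l2, with the distance in kb in the direction of the gene on the x axis and the authors' peak score on the y axis. Red points are peaks listed under the gene named and grey points peaks listed under another gene; the 5 Wnt5a peaks all lie 210 to 358 kb upstream, and the 4 Dact1 peaks lie in pairs at 80.3 to 84.6 kb on either side, where the 2 downstream points overlap.

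Lef1, the other TCF/LEF factor among the 8 genes, was nearest to none of the 1483 peaks, nor did any peak lie in its body. Among the 3 protein-coding genes on either side of it in the GRCm38.p6 gene order, Etnppl was nearest to 2 peaks, of scores 17.8 and 9.58, both in introns of Col25a1. Ctnnb1, which encodes beta-catenin, had no peak, and none of the 3 genes on either side was nearest to or held one. Axin2, a scaffold of the destruction complex and a common target of canonical signalling, had none either. Its neighbour Cep112 had a promoter peak of score 13.7, 0.189 kb upstream of the Cep112 start site (chr11:108286319-108286463). The distances of these peaks from Lef1 and Axin2 were not measured, since the deposited table gives no start site for genes without a peak. The lowest score in the list was 8.21, or 6 steps, and sites under the authors' threshold are not in it.

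The 13 scores ran from 10.9 to 30.1 with a median of 16.4 (exact binomial 95% interval 12.3 to 23.3), beside a median of 15.1 and a range of 8.21 to 84.8 over all 1483 peaks. That interval treats the 13 peaks as independent, which they are not, since 5 lie at Wnt5a and 4 at Dact1. At least 1 peak of Wnt11, Wnt5a, Fzd1 and Dact1 was at or above the list's 75th percentile of 17.8. These were 5 of the 13 peaks, beside 436 of all 1483, ties included. The intervals of the highest and the lowest of the 13, 18.9 to 45.6 and 4.73 to 21.6, overlapped. The focus ratio, a fraction deposited for each peak, ran from 0.621 to 0.9 with a median of 0.733, beside 0.739 over all peaks.

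**Figure D2:**
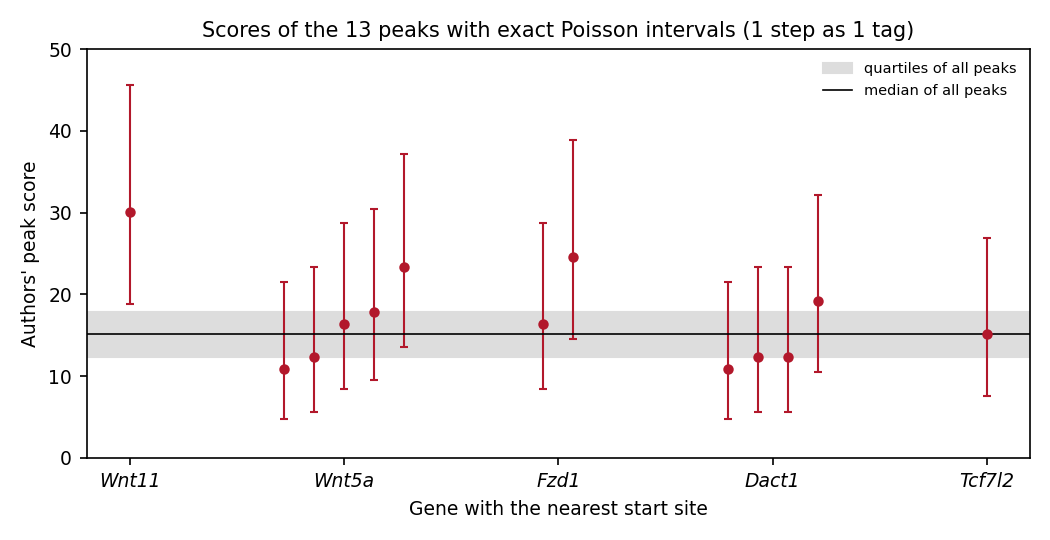
Authors' peak score of each of the 13 peaks (y axis) by the gene with the nearest start site (x axis), with exact Poisson 95% intervals that take 1 score step as 1 tag. The grey band marks the quartiles of all 1483 peaks, 12.3 and 17.8, and the line their median of 15.1; the Wnt11 interval lies above the band and the other 12 intervals reach into it.

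The 13 peaks of the chosen genes lay mostly in introns of other genes. Of the 13 peaks 10 were intronic (76.9%, exact Clopper-Pearson 95% interval 46.2 to 95.0), 3 intergenic and none in a promoter. Of the other 1470 peaks, 40.5% were intronic, 54.1% intergenic and 3.27% in promoters. Of the 10 intronic peaks, 9 lay in a gene other than the one with the nearest start site, namely 5 in Erc2, 2 in 2700049A03Rik and 1 each in Uvrag and Cdk14. Among the other peaks, 592 intronic ones had a matched host, and 158 of these (26.7%) lay in another gene. Of the 32 peaks listed under the 98 WNT pathway genes examined below, which include the 8, 17 were intronic (53.1%). Of these 17, 10 lay in another gene, and 9 of those are the ones just named. Peaks of 1 locus are not independent, and without Wnt5a 5 of 8 peaks were intronic and 4 of these 5 in another gene. Counted by gene, 4 of the 5 WNT genes with an intronic peak had 1 in another gene's intron, beside 122 of 455 other genes (26.8%). No test was made of these shares, as a few loci carry them.

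**Figure D3:**
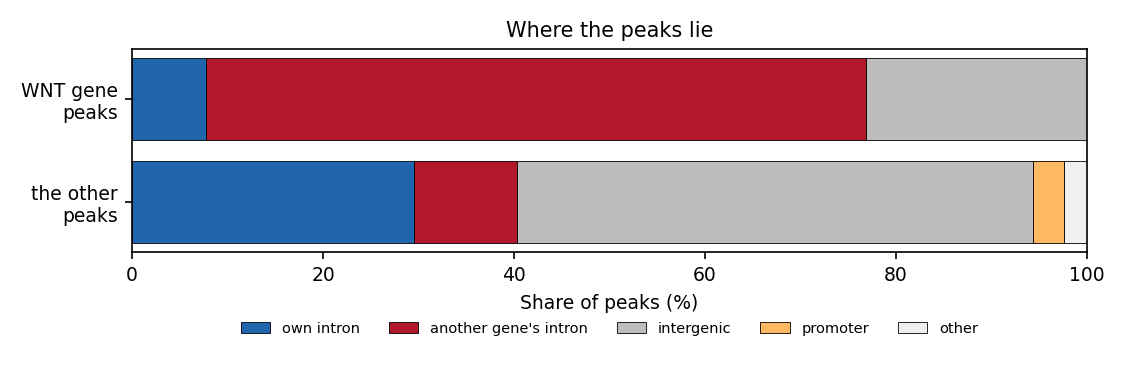
Share of peaks (x axis, %) by position for the 13 WNT gene peaks and the other 1470 peaks. Blue marks introns of the gene with the nearest start site, red introns of another gene, grey intergenic space, orange promoters, and white the rest, including introns of unmatched genes; red covers 9 of the 13 WNT gene peaks and 158 of the others.

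The 13 peaks were about as far from the genes as the other peaks were. Their median distance from the nearest start site was 96.1 kb (range 14.1 to 358 kb), beside 83.1 kb for the other peaks, and 7 of the 13 lay within 100 kb (53.8%, beside 55.4%). Upstream of the start site lay 8 of the 13, of which 5 belonged to Wnt5a, beside 41.0% of the other peaks. Another peak lay within 1 kb of 2 of the 13 peaks (15.4%), the Wnt5a pair, beside 5.85% of the others. Within 2 kb, a limit that takes in both Dact1 pairs, it was 6 of 13 (46.2%, beside 7.28%), and within 10 kb the same 6 (46.2%, beside 13.1%). The 6 lie at only 2 genes, and no other peak among the 32 of the 98 WNT pathway genes had a neighbour within 10 kb (6 of 32, 18.8%). Whether a pair is 1 binding region or 2 was not tested.

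Beyond the 8 genes, a list of 98 WNT pathway genes in 10 roles was examined, which holds the 8. Of the 98, 16 were nearest to a peak at any distance (16.3%, exact Clopper-Pearson 95% interval 9.63 to 25.2) and 13 within 100 kb (13.3%, 7.26 to 21.6). Leaving out the 8, which were chosen by their peaks, 11 of 90 genes were nearest to a peak (12.2%) and 9 within 100 kb (10%), beside the 3.82% and 2.57% of all genes. These shares do not correct for long genes and wide spacing, which collect peaks by distance alone, and the list was drawn up with results of this peak list known.

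Among the ligands and the proteins that make them, 2 of 19 WNT genes were nearest to a peak, Wnt5a and Wnt11. Wls, which carries WNT proteins to the cell surface, had 3 peaks. They lay 54.4 kb upstream (score 10.9), 8.10 kb downstream in intron 1 (chr3:159510687-159510831, score 17.8) and 45.8 kb downstream in intron 3 (score 10.9). The acyltransferase gene Porcn and the deacylase gene Notum had none.

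Among 16 receptors and co-receptors, Fzd1, Fzd6 and Ror1 were nearest to a peak. Ror1, a receptor tyrosine kinase that binds WNT5A, held 3 peaks within 32.2 kb. The peak at chr4:99955909-99956053 in intron 1 scored 19.2 and was listed under Ror1, 188 kb from its start site. The other 2, in intron 1 (chr4:99970416-99970560, score 19.2) and intron 2 (chr4:99988088-99988232, score 27.4), were listed under Ube2u, whose start site is nearer. A count by nearest start site thus gave Ror1 1 of the 3 peaks in its body. Fzd6 had an intergenic peak of score 9.58 at 27.7 kb upstream, the lowest score in the pathway list.

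Of 12 secreted inhibitors, Sfrp2, a soluble frizzled-related protein, had an intergenic peak of score 15.1 at 77.0 kb upstream. Dkk2, which binds the co-receptor LRP6, had 1 of the same score at 108 kb upstream (chr3:131639929-131640073). None of the 9 genes of the R-spondin axis, which raises receptor levels at the cell surface, was nearest to a peak, where a count of 0 allows a share of up to 33.6%. Of 8 genes of the cytoplasmic relay, only Dact1 was. In planar cell polarity, 2 of 9 genes were: Daam1, given above, and Vangl1, a core membrane protein of that branch, with a peak of score 19.2 in intron 4 of 7 (chr3:101973330-101973474), 34.5 kb downstream of the start site.

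None of the 10 genes of the destruction complex and beta-catenin was nearest to a peak, Axin1, Apc, Gsk3b and Ctnnb1 among them. With 10 genes a count of 0 allows a share of up to 30.8%, which includes the 16.3% of the whole list, so a lower share for these genes is not shown. Of the 4 TCF/LEF factors, Tcf7l2 alone was. Of 8 co-factors of TCF, 4 were: Pygo1, which binds the beta-catenin complex, and the corepressors Tle1, Tle3 and Tle4. The Pygo1 peak (score 15.1) lay 52.8 kb upstream in intron 11 of Prtg. Tle1 had 5 peaks of 10.9 to 38.3, at 33.1 to 747 kb from its start site. The one of 38.3, the highest score in the pathway list, was intergenic and 715 kb away. Tle4 had 3 of 12.3 to 21.9, at 5.63 to 456 kb, and Tle3 1 of 21.9 at 34.9 kb.

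**Figure D4:**
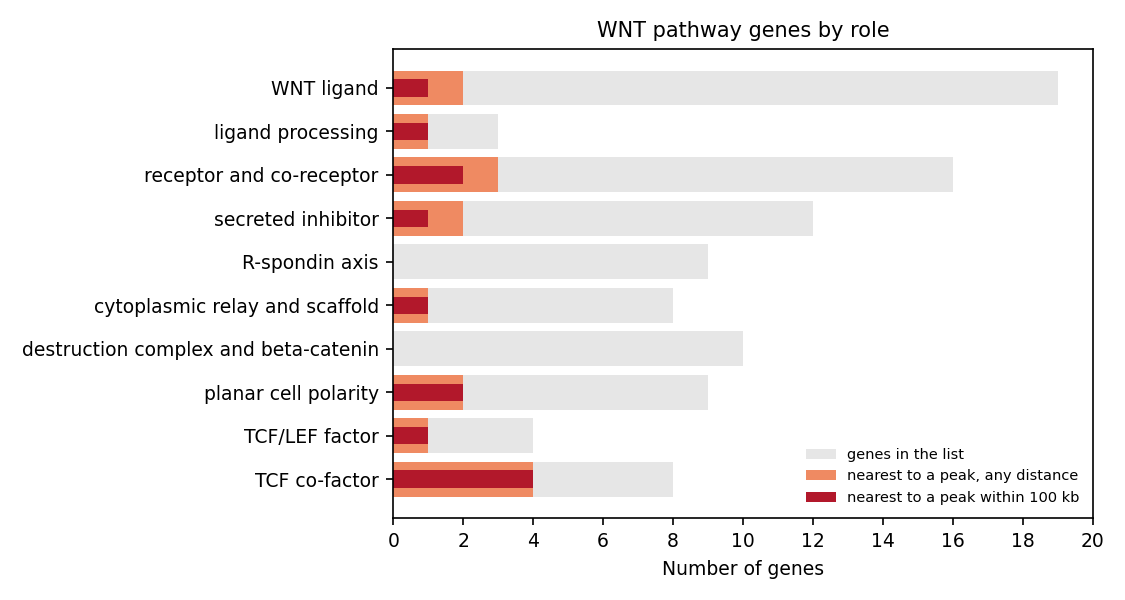
Number of WNT pathway genes (x axis) in each of the 10 roles (y axis): grey bars give the genes in the list, orange bars those nearest to a peak at any distance and red bars those within 100 kb. The R-spondin axis (9 genes) and the destruction complex with beta-catenin (10 genes) have no orange or red bar, and 4 of 8 TCF co-factors have both. Over all genes the shares are 3.82% at any distance and 2.57% within 100 kb.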

How the data were processed

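ISL1-bound chromatin and input were sequenced from sorted sinoatrial node cells, crosslinked with 2 mM disuccinimidyl glutarate and then 1% formaldehyde, and sheared to 100 to 400 bp, per the labels' protocols. Bowtie, HOMER and mm9 are named, per the submitters' processing notes; no source used here gives versions or peak calling settings. Peaks of 1 library were annotated with HOMER on mm9, per the file headers. The peak score is the authors' deposited score per peak, of unstated scaling. The focus ratio is a deposited fraction per peak. Distances are the deposited bp to the nearest start site.

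From these, start sites of genes with peaks were computed as the peak centre less the signed distance. Strand came from the peaks where a gene had several, and otherwise from a RefSeq promoter table (GRCm38.p6). Host genes and gene order came from a RefSeq gene table of the same build, which matched 1002 of 1003 nearest genes by identifier. Its coordinates were used for that order and for no distance. The 26220 genes with a curated transcript formed the background. No mm9 sequence was used, so no peak sequence is shown. The 8 genes, the pathway list and the rule for names (the 8 genes, list genes with a peak, hosts, neighbours and up to 5 genes like Wnt5a) were chosen with earlier results of these data known. The score step, the count of neighbouring peaks and the coverage of the median interval were checked on simulated data, and the other counts were not. No test was made. Intervals are exact at 95% (Python 3.11.15, scipy 1.17.1). Alternatives varied score, distance, repeats, gene assignment and merging of peaks within 1 kb.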

Additional observations from a re-analysis of the deposited data

How the results depend on the processing

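Of 35 recomputed values, 27 stayed close to the value reported (a count within a factor of 1.5, a median or share within its interval). Those intervals are wide, so the tally is a loose one. An intronic share of 57.1% within 100 kb counted as close to 76.9%. So did a median score of 23.3 at or above the 75th percentile, beside 16.4. At or above the median score 8 of the 13 peaks were left, at or above the 75th percentile 5, within 100 kb 7 and within 30 kb 1, that of Tcf7l2, so 1 gene remained there and its intronic share was 100%. Of all 1483 peaks, 48.9% scored below the median of 15.1, 436 were at or above the 75th percentile and 55.4% lay within 100 kb. The share of all peaks within 30 kb was not computed. For peaks at or above the 75th percentile, the share of all genes nearest to a peak was not computed. There, ties included, 10 of the 98 pathway genes were nearest to a peak, and 6 within 100 kb. Without that share these counts cannot be read as high or low. Without the Tle genes, an alternative chosen after seeing the data, 13 of 94 pathway genes were nearest to a peak of the full list, and 10 within 100 kb. Over all genes these shares were 3.82% and 2.57%. No paired analysis was possible because the peaks come from 1 library. If 1 score step is 1 tag, each score has a wide counting interval, and variation between animals was not measured.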
